A study of Arabidopsis thaliana with 8 samples.

Results

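This account covers what the as1-1 mutation did in plants that also carried tfl2-1. It rests on 4 of the 8 one-colour microarrays of an Arabidopsis thaliana series: the 2 arrays of the as1-1 tfl2-1 double mutant and the 2 arrays of the tfl2-1 single mutant, chosen by their sample titles. Every plant was of the Col-0 background and was harvested as a whole seedling at 12 days of age, on MS medium under long days. The tfl2-1 allele was carried by all 4 samples, so by the labels the groups differed in as1-1 alone. The as1-1 single mutant and the wild type (WT), with 2 arrays each, served to ask whether as1-1 had the same effect in plants with TFL2. Whole seedlings hold many tissues, so fewer cells of a type and less RNA per cell cannot be told apart in any of these values.

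AS1, named after asymmetric leaves, is a MYB-type transcription factor. It works with the LOB-domain protein AS2 to keep class I KNOX homeobox genes, which belong to the shoot meristem, silent in leaves, and to set the upper and lower sides of the leaf. TFL2 (TERMINAL FLOWER 2, also known as LHP1) encodes a chromodomain protein that binds the histone mark laid down by Polycomb repressive complexes and helps to hold developmental genes, floral genes among them, silent. Polycomb proteins and AS1 are both known as repressors of KNOX genes, which raises the question of what AS1 still does once TFL2 is gone.

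All 4 arrays lay on the same slide, and the as1-1 and WT arrays shared another. Levels with and without TFL2 therefore cross slides, and slide and the tfl2-1 allele cannot be told apart, while each as1-1 effect lies within a slide. Each array of the series had 29243 to 31610 of its 43603 probes well above background and no saturated spot, and the arrays' median signals ran from 170.1 to 238.9. Over probes, which are no independent samples, the 2 double mutant arrays correlated with r = 0.9949 and the 2 tfl2-1 arrays with r = 0.9955, and arrays of the 2 genotypes with r of 0.985 to 0.986. Levels are given as scaled signals: each array was set to a common 75th percentile, and levels compare arrays for 1 gene but not different genes. Differences are log2, double mutant minus tfl2-1, with the standard error (SE) of a limma model, n = 2 arrays per genotype. A gene rose or fell when its two-sided adjusted p (Benjamini-Hochberg over 22668 genes) was under 0.05. Nothing in the labels says that the 2 arrays of a genotype came from separate cultures, so p-values measure the spread between these samples, which may be technical.

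Adding as1-1 to tfl2-1 plants changed 7144 of 22668 genes tested (31.5%). Of these, 3059 genes rose (13.5%) and 4085 fell (18%). The balance of rises and falls depended on the scaling. Genes that rose were 42.8% of those called, but 49.7% with quantile normalization or the deposited value table and 50.4% with normexp correction. At the main scaling, the 8 spike-in control probes above background read lower in the double mutant, by log2 differences of -0.22 to -0.08. Their part in the counts was not tested. Most changes were small, with a median size of 0.38 on the log2 scale among called genes, and the median over all genes was -0.00. At least 2-fold changes were called for 282 genes that rose (1.24%) and 393 that fell (1.73%). The counts by adjusted p alone depended on the arrays: leaving out any 1 of the 4 left 1722 to 1884 genes that rose and 2657 to 2917 that fell. Counts of members in the gene lists below are to be read against the 13.5% of all genes that rose and the 18% that fell.

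The transcripts of the mutated genes themselves stayed detectable. AS1 (AT2G37630) had scaled signals of 2399.5 and 2640.2 in the double mutant, against 2030.2 and 1953 in tfl2-1. Both double mutant arrays were above both tfl2-1 arrays, by 1.26-fold (0.34 ± 0.06, adjusted p = 0.00952), but the call was lost without tfl2-1 replicate 2 (adjusted p = 0.0531). In plants with TFL2 the same mutation went with the opposite sign: AS1 had signals of 1752 and 1767 in as1-1, against 2537 and 2421 in WT (-0.49 ± 0.06). TFL2 (AT5G17690) read 669 and 684 in the double mutant and 522 and 536 in tfl2-1, a 1.28-fold rise (0.35 ± 0.06, adjusted p = 0.00773). The lesions and the probes' places on the transcripts are not given in the labels, so these levels check nothing about the genotypes.

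All 4 class I KNOX genes rose when as1-1 was added, against 13.5% of all genes, and the double mutant had higher levels than any other genotype. KNAT1 (AT4G08150, also called BREVIPEDICELLUS) had signals of 1574 and 1651 in the double mutant, against 325 and 309 in tfl2-1. The groups were far apart for this gene, at 5.08-fold (2.35 ± 0.06, adjusted p = 2.09e-05). KNAT2 (AT1G70510) had 1156 and 1201 in the double mutant and 403 and 415 in tfl2-1, which is 2.88-fold higher (1.53 ± 0.06, adjusted p = 6.62e-05). KNAT6 (AT1G23380), a close relative of KNAT2, had 1137 and 1287 in the double mutant and 483 and 445 in tfl2-1, 2.61-fold higher (1.38 ± 0.09, adjusted p = 0.000253). STM (AT1G62360), which maintains the shoot meristem, had the smallest rise of the family. Its signals were 1767 and 1832 in the double mutant and 1105 and 1129 in tfl2-1, or 1.61-fold (0.69 ± 0.07, adjusted p = 0.00142).

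The same mutation raised all 4 KNOX genes in plants with TFL2 too, where 7.09% of all genes rose. The as1-1 minus WT differences were 1.94 for KNAT1, 1.12 for KNAT2, 1.16 for KNAT6 and 0.28 for STM. The effect in tfl2-1 plants exceeded the effect in plants with TFL2 by 0.40 for KNAT1 (adjusted p = 0.0197), by 0.41 for KNAT2 (adjusted p = 0.02) and by 0.41 for STM (adjusted p = 0.0395), and 10.6% of all genes had such a positive difference. For KNAT6 the excess was 0.23 ± 0.12 and did not pass the test (adjusted p = 0.236). These excesses are small beside the effects, and those of KNAT1, KNAT2 and STM did not pass in at least 5 of the alternative settings, while the rises themselves passed in all of them.

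**Figure D1:**
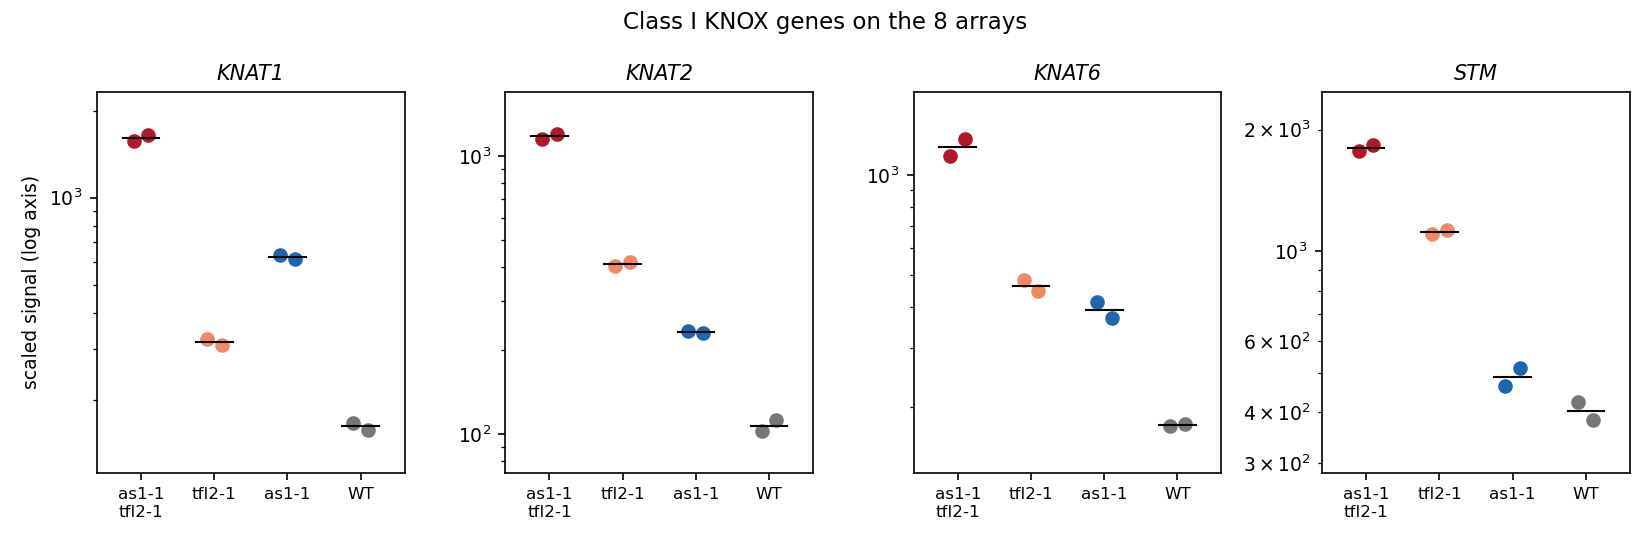
Scaled signal (log axis) of KNAT1, KNAT2, KNAT6 and STM on each array. Each point is an array and each bar the geometric mean of the 2 arrays of a genotype. The as1-1 tfl2-1 arrays are the highest in every panel, at 1574 and 1651 for KNAT1 against 325 and 309 in tfl2-1, and as1-1 lies above WT.

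The BELL homeobox proteins, which pair with KNOX proteins and bring them into the nucleus, were called at about the rate of all genes: of 13 tested, 3 rose (13.5% of all genes did) and 2 fell (18% of all genes), with a median of 0.04. ATH1 (AT4G32980), a BELL gene of the shoot apex, had 1084 and 1239 in the double mutant and 616 and 579 in tfl2-1 (0.96 ± 0.08, adjusted p = 0.000613). BLH8 (also called POUND-FOOLISH) rose by 1.08 and RPL (PENNYWISE), its partner in keeping the inflorescence meristem, by 0.49. BLH4 (SAWTOOTH2), known to restrict KNOX expression in leaves, fell by 0.46, with 1523 and 1557 in the double mutant against 2122 and 2103 in tfl2-1. For ATH1 and BLH4 the effect differed by test from that in plants with TFL2, where it was -0.10 and -0.02.

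Genes of the lower (abaxial) leaf side were mostly higher. Of 10 YABBY, KANADI and ARF genes tested, 7 rose, against 13.5% of all genes, and 1 fell, with a median of 0.55. YAB5 (AT2G26580) had 2019 and 1947 in the double mutant, against 705 and 698 in tfl2-1. Its arrays did not overlap and the rise was 2.83-fold (log2 SE 0.05, adjusted p = 5.75e-05), about as large as the 3.05-fold rise that as1-1 gave in plants with TFL2. KAN2, a GARP-type factor of the abaxial side, had 411 and 425 against 227 and 217 (0.91 ± 0.05), beyond its difference of 0.28 in plants with TFL2. ETT (ARF3), an auxin response factor repressed by AS1 and AS2, had 3830.1 and 3984 against 2533 and 2639 in tfl2-1, and YAB2 rose by 0.57. Of the 5 HD-ZIP III genes, which specify the adaxial side, none rose and 2 fell slightly, HB8 by 0.23 and PHV by 0.27, but these counts depended on the settings. Under both other scalings, normexp correction and the deposited value table, 1 of the 5 rose, and none fell without the filter on dim probes, with only the 4 arrays in the fit or without double mutant replicate 2. Both small falls lost their call under some alternatives, HB8 without either double mutant array or tfl2-1 replicate 2 and PHV without double mutant replicate 2 or tfl2-1 replicate 1 (adjusted p from 0.0553 to 0.0988).

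AS2 (AT1G65620), the partner of AS1, was itself higher. It had 160.4 and 153 in the double mutant, against 67.1 and 76.0 in tfl2-1. That is a 2.2-fold rise (1.14 ± 0.11, adjusted p = 0.00101), and as1-1 gave 0.97 in plants with TFL2. Across the 14 LBD genes tested, 6 rose and 1 fell (median 0.20). The 1 that fell was LOB (AT5G63090), a LOB-domain gene of organ boundaries, with 195 and 211 in the double mutant and 339 and 338 in tfl2-1 (-0.74 ± 0.07, adjusted p = 0.00122). With TFL2 present, LOB was not well above background in as1-1 (12.9 and 13.0) and had 136 and 155 in WT. LBD4, a gene of vascular tissue, rose by 0.49 here while its difference was -0.43 in plants with TFL2.

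Genes of organ boundaries and meristems were mostly higher. Of 10 tested, 7 rose, against 13.5% of all genes, and none fell, with a median of 0.70. BOP2 (AT2G41370), a BTB-ankyrin protein of the leaf base, had 1365 and 1453 in the double mutant against 578 and 559.6 in tfl2-1 (1.31 ± 0.05, adjusted p = 7.69e-05). LSH4, a nuclear protein gene of the boundary, had 1359.5 and 1259 against 598 and 604 (1.12 ± 0.06). CUC3 (AT1G76420), a NAC factor that separates organs, had 319 and 362 in the double mutant and 138 and 132 in tfl2-1, 2.52-fold higher (1.33 ± 0.08, adjusted p = 0.000232). CUC1, its relative, had 102 and 105 against 60.3 and 63.2 (0.74 ± 0.06). Without the tfl2-1 allele the CUC genes parted: as1-1 lowered CUC3 by 0.57, while CUC1 had 25.3 and 26.9 in as1-1 and was not well above background in WT (12.3 and 11.7). With normexp background correction the difference between the effects on CUC1 changed sign, to 0.15. In as1-1 against WT, where 7.09% of all genes rose and 12.1% fell, 3 of the 10 boundary genes rose and 2 fell.

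Growth-regulating factors, which promote cell proliferation in young leaves together with the coactivator AN3, rose in tfl2-1 plants although as1-1 did not raise them in plants with TFL2. Of the 10 genes of this list, 8 rose, against 13.5% of all genes, and none fell (median 0.70), whereas in as1-1 against WT none rose and 6 fell, against 12.1% of all genes. GRF7 (AT5G53660) had 355 and 354 in the double mutant, against 111 and 109.6 in tfl2-1 (1.68 ± 0.10, adjusted p = 0.000224). GRF5 (AT3G13960) had 1104 and 1129 in the double mutant and 546 and 532 in tfl2-1 (1.05 ± 0.05, adjusted p = 0.000136). GRF4 and GRF3 rose by 0.73 and 0.67. All 10 members had a positive difference between the backgrounds that passed the test, against 10.6% of all genes.

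Of the CIN-type TCP genes, which slow proliferation at the leaf margin, 1 of 8 rose and 2 fell, near the shares of all genes. TCP4 had 4817 and 4434 in the double mutant and 5932 and 5900.1 in tfl2-1 (-0.36 ± 0.06, adjusted p = 0.00558). The mitotic cell cycle list had 4 of 14 genes higher, against 13.5% of all genes, and none lower, with a median of 0.08. CYCD1;1, a D-type cyclin, rose by 0.40 and CDKB2;1, a mitotic kinase, by 0.42. In as1-1 against WT, none of these 14 genes rose and 8 fell, against 12.1% of all genes. Genes of the Polycomb complexes moved little, with 3 of 14 higher and none lower. RING1B, a RING protein of Polycomb repressive complex 1, had 219.7 and 222 in the double mutant and 163 and 158 in tfl2-1 (0.46 ± 0.06, adjusted p = 0.00289).

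Type-A response regulators, which cytokinin induces and which feed back on its signalling, rose in the double mutant. Of 9 tested, 7 rose, against 13.5% of all genes, and none fell, with a median of 0.55. ARR6 (AT5G62920) had 608 and 602 in the double mutant, against 232 and 219 in tfl2-1 (1.42 ± 0.06, adjusted p = 7.01e-05). ARR7 (AT1G19050) had 1964 and 1952 against 809 and 759.7 in tfl2-1 (1.32 ± 0.07), and ARR15 had 194 and 218 against 87.5 and 82.6 (1.27 ± 0.07). ARR5 (AT3G48100) had 748 and 709 in the double mutant and 337 and 349 in tfl2-1, 2.13-fold higher. In every one of these genes the double mutant still lay below WT, where ARR6 had 1913 and 1993. Where TFL2 was present, as1-1 lowered ARR6, ARR7 and ARR15 by 0.59, 0.52 and 0.72, and raised ARR5 by 0.40. The difference between backgrounds was positive and called for 8 of the 9 genes, against 10.6% of all genes.

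Cytokinin synthesis and breakdown genes split, with 2 of 10 higher and 3 lower, against 13.5% and 18% of all genes. IPT3, which makes cytokinin, had 2293 and 2178 in the double mutant and 1404 and 1402 in tfl2-1 (0.67 ± 0.05), and its difference in plants with TFL2 was 0.66. CKX3 and CKX4, which break cytokinin down, fell by 1.28 and 1.03. CKX6, of the same family, rose instead, by 0.47 to 0.59 over the alternative settings. Among gibberellin oxidases, 1 of 9 rose and 2 fell, near the 13.5% and 18% of all genes. The 1 that rose was GA3OX1, an enzyme of the last step to active gibberellin, with 210.4 and 216 in the double mutant against 116 and 128 in tfl2-1 (0.81 ± 0.06). The 2 that fell were GA2OX1 and GA2OX6, which inactivate gibberellin, by 0.83 and 0.80. All 3 went the other way in plants with TFL2, where as1-1 lowered GA3OX1 by 0.39 and raised GA2OX1 and GA2OX6 by 0.39 and 1.15. Of 7 brassinosteroid genes, 2 rose and 1 fell, and BR6OX2, a late enzyme of the pathway, rose by 0.46.

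Aux/IAA genes, which encode auxin-inducible repressors of auxin response factors, fell in 7 of 14 cases, against 18% of all genes, and rose in 2, against 13.5% (median -0.24). IAA19 (AT3G15540) had 130.3 and 126 in the double mutant, against 366 and 374 in tfl2-1 (-1.53 ± 0.05, adjusted p = 3.99e-05). IAA7 fell by 0.68. IAA29 had 16.5 and 24.3 in the double mutant, with 1 of the 2 arrays above background, and 84.6 and 75.8 in tfl2-1. IAA6 was not well above background in the double mutant (4.77 and 6.6) and had 52.0 and 51.0 in tfl2-1, so it was at least 3.6-fold lower. None of these 4 genes was called lower in as1-1 than in WT, with differences of -0.03 for IAA19, 0.16 for IAA7, -0.27 for IAA29 and 0.64 for IAA6. Auxin synthesis genes went both ways, with 3 of 8 higher and 2 lower. TAR2, an aminotransferase of the pathway, rose by 0.48. YUC4, a flavin monooxygenase gene, had 43.0 and 49.6 against 27.1 and 24.8, with 1 of the 2 tfl2-1 arrays above background, and YUC3 had 27.0 and 34.8 against 67.6 and 64.4, with 1 of the 2 double mutant arrays above it.

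Every one of the 20 jasmonate genes fell, against 18% of all genes, with a median of -0.71. Jasmonate is the oxylipin hormone of wounding and of defence against insects. All 9 genes of its synthesis and conjugation fell, by log2 differences of -1.22 to -0.23. LOX3 (AT1G17420), a lipoxygenase that starts the pathway, had 1429 and 1443 in the double mutant, against 3325 and 3381 in tfl2-1. Its fall was 2.34-fold (-1.22 ± 0.04, adjusted p = 5.75e-05). All 8 JAZ genes, which encode repressors of the response and are themselves induced by it, fell by differences of -1.58 to -0.53. JAZ7 (AT2G34600) had 435 and 399 in the double mutant against 1237 and 1262 in tfl2-1 (-1.58 ± 0.08, adjusted p = 0.000117). JAZ1 (AT1G19180) had 1363 and 1312 against 3409.5 and 3507 in tfl2-1, 2.59-fold lower, and JAZ10 had 777 and 742 against 1669 and 1649.

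The jasmonate genes also fell in plants with TFL2, where as1-1 lowered 18 of the 20 (median -0.77), against 12.1% of all genes. The sizes differed by gene and in both directions. JAZ1 fell by 1.37 in tfl2-1 plants and by 0.26 in plants with TFL2, while JAZ10 fell by 1.13 in tfl2-1 plants and by 1.79 in plants with TFL2. Over the list the difference between backgrounds was positive and called for 8 genes and negative and called for 7, against 10.6% and 9.67% of all genes. The 2 vegetative storage protein genes, long used as jasmonate markers, fell by differences of -0.47 and -0.45 in tfl2-1 plants. Under quantile normalization, normexp correction, the deposited value table and the mean of all probes, 19 of the 20 fell, and with the other alternatives over all arrays all 20 did.

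**Figure D2:**
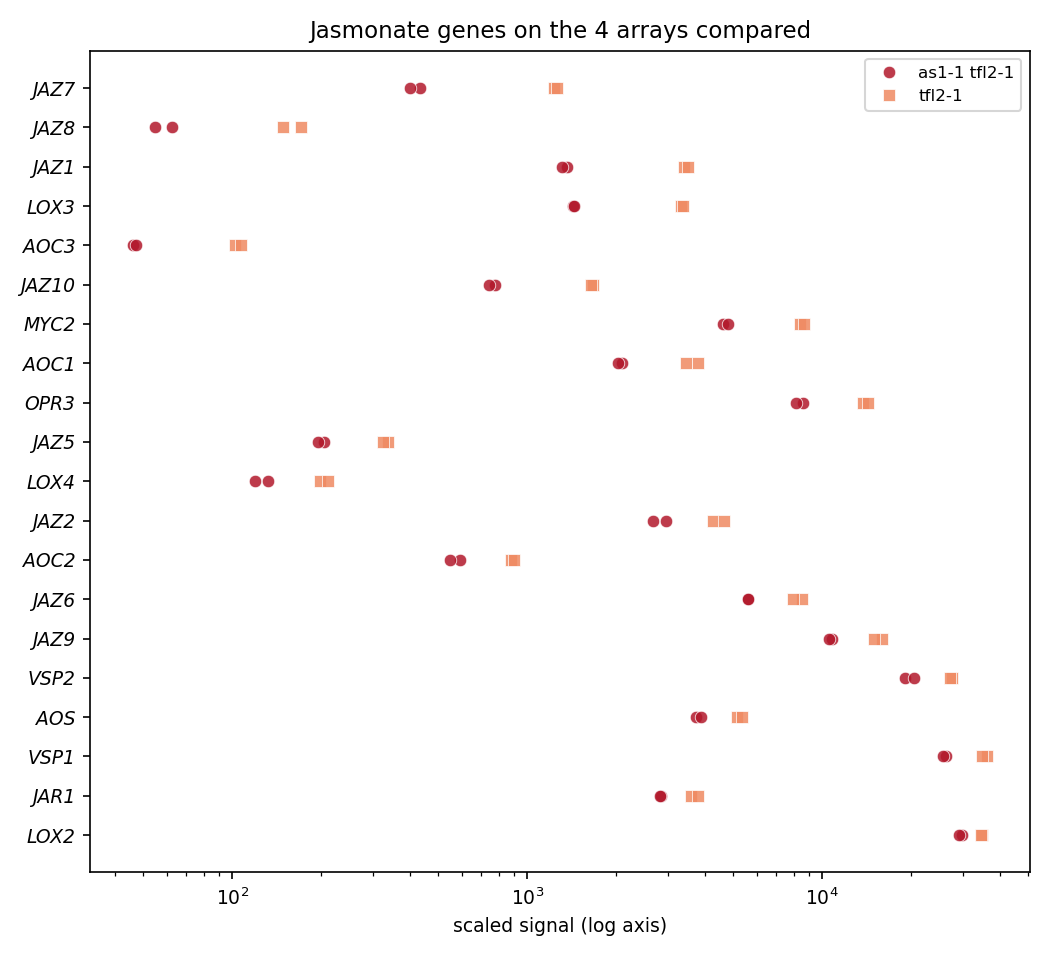
Scaled signal (log axis) of the 20 jasmonate genes on the 4 arrays, with a circle per as1-1 tfl2-1 array and a square per tfl2-1 array, ordered by the size of the difference. Circles lie left of squares in every line, from JAZ7 (435 and 399 against 1237 and 1262) down to the smallest difference of -0.23.

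Of 12 salicylic acid defence genes, 6 rose, against 13.5% of all genes, and 3 fell, against 18% (median 0.17). PR1 (AT2G14610), the standard marker of this response, had 54.7 and 50.3 in the double mutant and was not well above background in tfl2-1 (9.27 and 9.62), so it was at least 2.67-fold higher (adjusted p = 0.00361). PR2, a glucanase gene, had 112 and 127 against 51.8 and 53.6 (1.18 ± 0.14), and PR5, a thaumatin-like gene, had 909.7 and 895 against 555 and 591 (0.66 ± 0.06). WRKY70, a regulator between the salicylic acid and jasmonate responses, rose by 0.64. Each of the 4 also rose in as1-1 against WT, by 2.25, 1.15, 0.24 and 0.50, so none of these rises was confined to tfl2-1 plants. PR1 was also not well above background in WT (4.88 and 10.8), so its difference there is no measured size.

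Genes of aliphatic glucosinolates, sulphur-rich defence compounds made from methionine, fell in 10 of 16 cases and rose in none (median -0.40). Of all genes, 18% fell. MAM3 (AT5G23020), which elongates the methionine side chain for the long-chain forms, had the largest fall of the list. It had 38.1 and 41.9 in the double mutant, against 532 and 511 in tfl2-1, 13.1-fold lower (-3.71 ± 0.07, adjusted p = 1.99e-05). MAM3 had 1169.5 and 1156 in as1-1 and 907 and 995 in WT, a rise of 0.29 in plants with TFL2. MYB29, a regulator of the pathway, had 337 and 330.0 in the double mutant against 615 and 659 in tfl2-1 (-0.93 ± 0.06). BCAT4, the first enzyme of chain elongation, fell by 0.84. In as1-1 against WT, 2 of the 16 rose and 9 fell, against 7.09% and 12.1% of all genes. The difference between the backgrounds was called for 2 positive and 4 negative members, against 10.6% and 9.67% of all genes.

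Indole glucosinolate genes, which use tryptophan, were mixed, with 3 of 8 higher and 4 lower, against 13.5% and 18% of all genes. CYP79B2, at the entry to the pathway, had 3727 and 3786 in the double mutant against 2938 and 2744 in tfl2-1 (0.40 ± 0.05). Its close relative CYP79B3 fell, by log2 differences of -0.41 to -0.32 over the alternative settings. MYB34, a regulator of the pathway, rose by 0.61. CYP81F2, which modifies the finished compounds, had 90.1 and 83.6 against 180.3 and 181 (-1.06 ± 0.05). In plants with TFL2, as1-1 lowered CYP79B2, MYB34 and CYP81F2, by 0.69, 0.91 and 0.31. Of the 15 flavonoid and anthocyanin genes, 3 rose and 4 fell (median 0.00). DFR (AT5G42800), which makes anthocyanin precursors, was not well above background in the double mutant (8.14 and 4.29) and had 129.6 and 131 in tfl2-1, at least 9.1-fold lower (adjusted p = 0.000238). It had 120.3 and 118 in as1-1 and 134 and 154 in WT, and the difference between the backgrounds was called (adjusted p = 0.00155). GSTF12, an anthocyanin carrier, was at least 4.09-fold lower by its brightest probe (7.59 and 11.5 against 60.9 and 65.4), but its other probe gave a difference of 0.61, so the probes disagree. MYB111, a flavonol regulator, rose by 0.48.

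Among floral organ and floral meristem genes, 5 of 15 rose, against 13.5% of all genes, and 2 fell, against 18% (median 0.23). SEP3 (AT1G24260), a MADS gene of inner floral organs, had 16376 and 15157 in the double mutant and 22412 and 24153 in tfl2-1 (-0.56 ± 0.06), against 231 and 226 in as1-1 and 165 and 163 in WT. SHP1, a fruit and ovule MADS gene, had 1875 and 2011 in the double mutant and 1117 and 1096 in tfl2-1 (0.81 ± 0.08). AGL6, a MADS gene of floral meristems, had 448 and 439.5 against 133 and 161 (1.60 ± 0.25), and was not well above background in as1-1 or WT.

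Of 24 flowering time genes, 6 rose (13.5% of all genes did) and 5 fell, near the 18% of all genes. FT (AT1G65480), the mobile signal that promotes flowering, had 759 and 706 in the double mutant, against 2136 and 2388 in tfl2-1. It fell 3.08-fold (-1.62 ± 0.07, adjusted p = 9.64e-05) and as1-1 also lowered it in plants with TFL2, by 1.41. The levels in the double mutant stayed above the 155 and 152 of WT. BFT, an FT relative that delays flowering, had 18.6 and 23.6 against 118 and 113, with 1 of the 2 double mutant arrays above background. SPL3, which promotes flowering with age, had 7174 and 6754 in the double mutant and 4166 and 4029 in tfl2-1 (0.76 ± 0.06).

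Cold and touch genes fell in tfl2-1 plants, while part of the cold genes and most of the touch genes rose in plants with TFL2. Of 12 CBF, DDF and cold-target genes, none rose and 10 fell in tfl2-1 plants (median -0.89), against 18% of all genes. In as1-1 against WT 5 rose, against 7.09% of all genes, 7 were not called and none fell. For 11 of the 12 the difference was negative and called, against 9.67% of all genes. Of these 12, 3 were below background in both the double mutant and tfl2-1, and only CBF2 of those is among the 10 called. With normexp correction 8 of 12 fell, with a median of -0.29. CBF1 (AT4G25490), an AP2 factor that switches on cold tolerance, had 71.2 and 66.0 in the double mutant and 132 and 127 in tfl2-1 (-0.92 ± 0.08), but 2839 and 2517 in as1-1 against 157 and 169.7 in WT (4.03 ± 0.08). DDF1, a close relative, had 16.0 and 14.1 in the double mutant, below background, and 29.6 and 37.7 in tfl2-1, where 1 of 2 arrays was above it. In plants with TFL2, DDF1 had 2807 and 2652 in as1-1 against 71.5 and 89.1 in WT. CBF2, and CBF4, which the list does not hold, were below background in both the double mutant and tfl2-1, so no fold is given there. In as1-1, CBF2 had 825 and 788 and CBF4 425 and 528. Targets fell as well, COR15A to 1361 and 1491 in the double mutant against 2832 and 2867 in tfl2-1 (adjusted p = 0.000277) and COR47 by 0.86.

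Early genes of touch and wounding fell too. In tfl2-1 plants 14 of 17 fell, against 18% of all genes, and none rose (median -0.49). In as1-1 against WT 13 rose and 2 fell, against 7.09% and 12.1% of all genes. ZAT10 (AT1G27730), a zinc-finger gene of many stresses, had 1176 and 1215 in the double mutant and 2250.2 and 2215 in tfl2-1 (-0.90 ± 0.05), but 10922 and 11182 in as1-1 and 1768 and 1876 in WT (2.60 ± 0.05). ZAT12 fell by 0.95 and WRKY40 by 0.83 in tfl2-1 plants, where in plants with TFL2 they rose by 2.24 and 2.15. SRO5, of the RCD1 family, had 31.1 and 37.4 against 54.1 and 50.9, and 2287 and 2196 in as1-1 against 90.2 and 89.1 in WT. The high levels of ZAT10, CBF1 and SRO5 stood on the 2 as1-1 arrays and not on the double mutant arrays. Handling and the time between harvest and freezing are not recorded for each sample, and their part in these values was not tested.

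**Figure D3:**
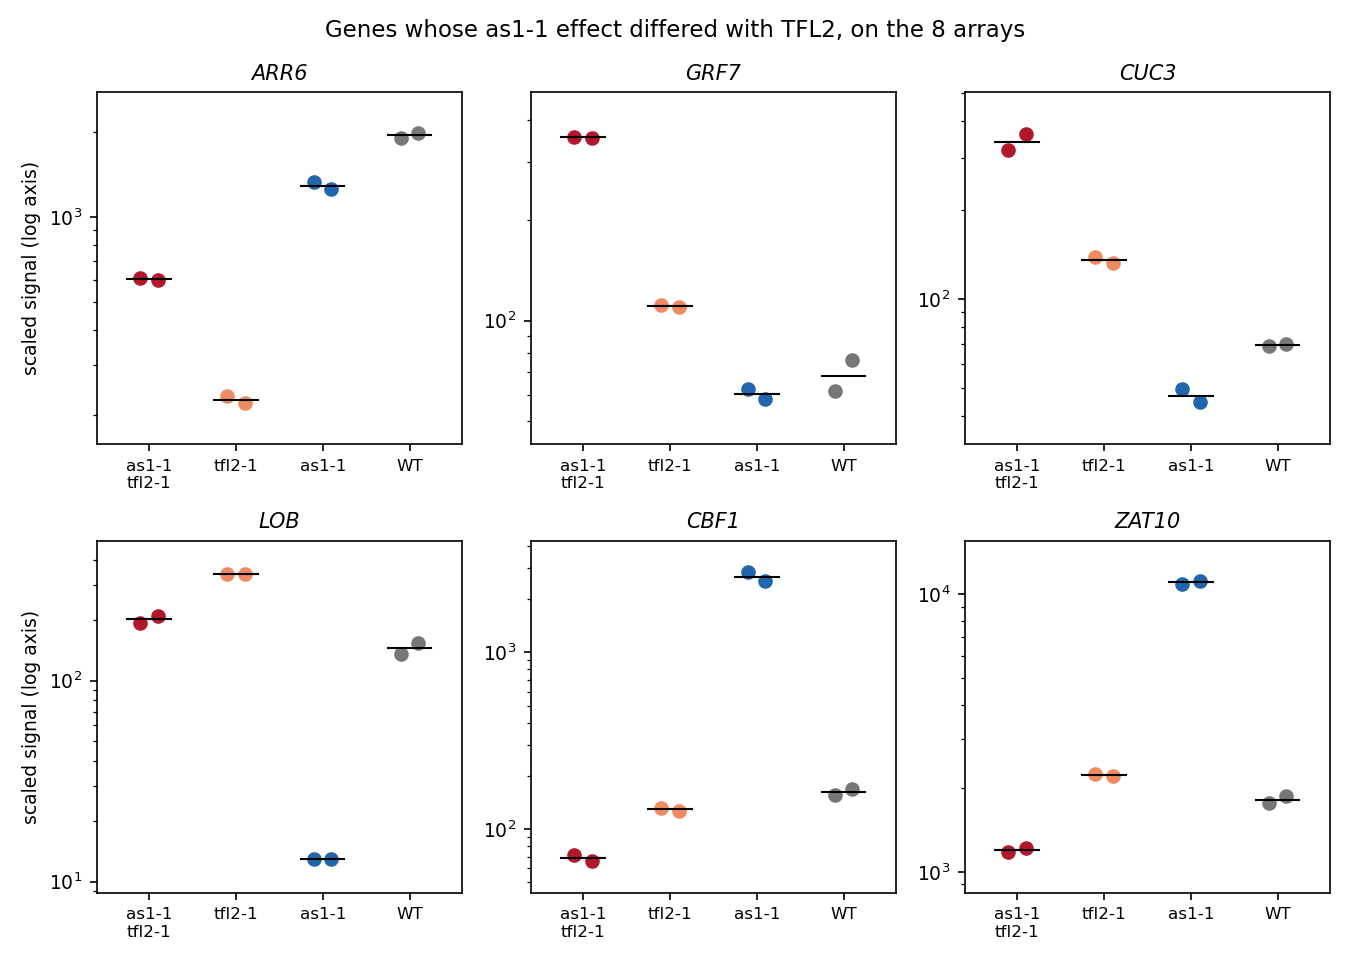
Scaled signal (log axis) of 6 genes whose as1-1 effect differed between the backgrounds. Each point is an array and each bar the geometric mean of the 2 arrays. ARR6, GRF7 and CUC3 are higher in as1-1 tfl2-1 than in tfl2-1 but not in as1-1 than in WT, LOB is far lower in as1-1 (12.9 and 13.0), and CBF1 and ZAT10 are high in as1-1 only.

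Clock genes were lower in 6 of 11 cases, against 18% of all genes, and higher in 1 (median -0.49). In as1-1 against WT, 6 were lower, against 12.1% of all genes, and none higher. GI, an evening gene of the clock, had 147 and 146 in the double mutant and 265 and 271 in tfl2-1 (-0.87 ± 0.07), and the effect in plants with TFL2 was -0.89. PRR7 and PRR5, repressors of morning clock genes, fell by 0.82 and 0.72, and ELF4, of the evening complex, had 2654 and 2542 against 4508 and 4296. Whether the genotypes were harvested at the same hour is not stated in the labels, and its part in these values was not tested.

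Photosynthesis genes, which stand here for leaf tissue, fell in 15 of 22 cases, against 18% of all genes, and rose in none (median -0.32), and their summed signal was 3596070 and 3901050 in the double mutant against 4724760 and 4353820 in tfl2-1. The falls depended on the scaling, with 7 of 22 lower under quantile normalization and in the deposited value table. LHCB6, an antenna protein, had 114215 and 118500.0 in the double mutant and 205039 and 200234 in tfl2-1 (-0.80 ± 0.06), LHCB3 fell by 0.93 and RCA, the activase of Rubisco, by 0.44. LHCB2.1 had 61.4 and 63.7 against 285 and 284, although near-identical copies of this family may share its probe. Vascular markers had 7 of 9 genes lower, again against 18% of all genes, among them XCP1, a xylem protease (-0.81), and the wall cellulose synthases CESA8 (-0.68) and CESA7 (-0.55). Their summed signal was 21512 and 21737.2 in the double mutant against 25031 and 26110 in tfl2-1. Root markers summed to 4050 and 4427 in the double mutant against 3286 and 3504 in tfl2-1, with 5 of 11 below background on all 4 arrays. Of the 7 root markers tested, 3 rose and 1 fell, and without double mutant replicate 1, without tfl2-1 replicate 2 or with no filter on dim probes 1 rose. SHR, a root and vascular patterning gene, rose by 0.36, and the 1 that fell, WOX5 of the root stem cell niche, was below background on all 4 arrays. Of 9 stomatal and trichome markers 1 fell, FAMA by 0.34. Pollen and seed markers were mostly absent, with 5 of 8 and 6 of 10 below background on all 4 arrays. The part of tissue proportions in the other results was not tested.

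Cell wall genes of expansion went both ways. Of 10 expansin and xyloglucan enzyme genes 3 fell, against 18% of all genes, and 2 rose, against 13.5% (median 0.15). The 3 that fell were expansins: EXPA11 had 487 and 529 in the double mutant against 1421 and 1467 in tfl2-1 (-1.51 ± 0.06), EXPA8 was 2.8-fold and EXPA5 2.47-fold lower. EXPA1, also an expansin, was among the 2 that rose, by 0.32 to 0.42 over the alternative settings. EXPA11 rose by 0.42 in as1-1 against WT. Among the shade and PIF genes 1 of 6 rose and 2 fell: BEE1, a brassinosteroid-responsive bHLH gene, rose by 0.96 and PIF4, a bHLH factor of growth in warmth and shade, fell by 0.48. Of 3 heat shock genes tested, 1 rose, 1 fell and 1 was not called. HSP18.2, a small heat shock protein gene, fell by 0.54. HSP101 rose by 0.16, but its call was lost in 14 of 17 alternative settings.

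**Figure D4:**
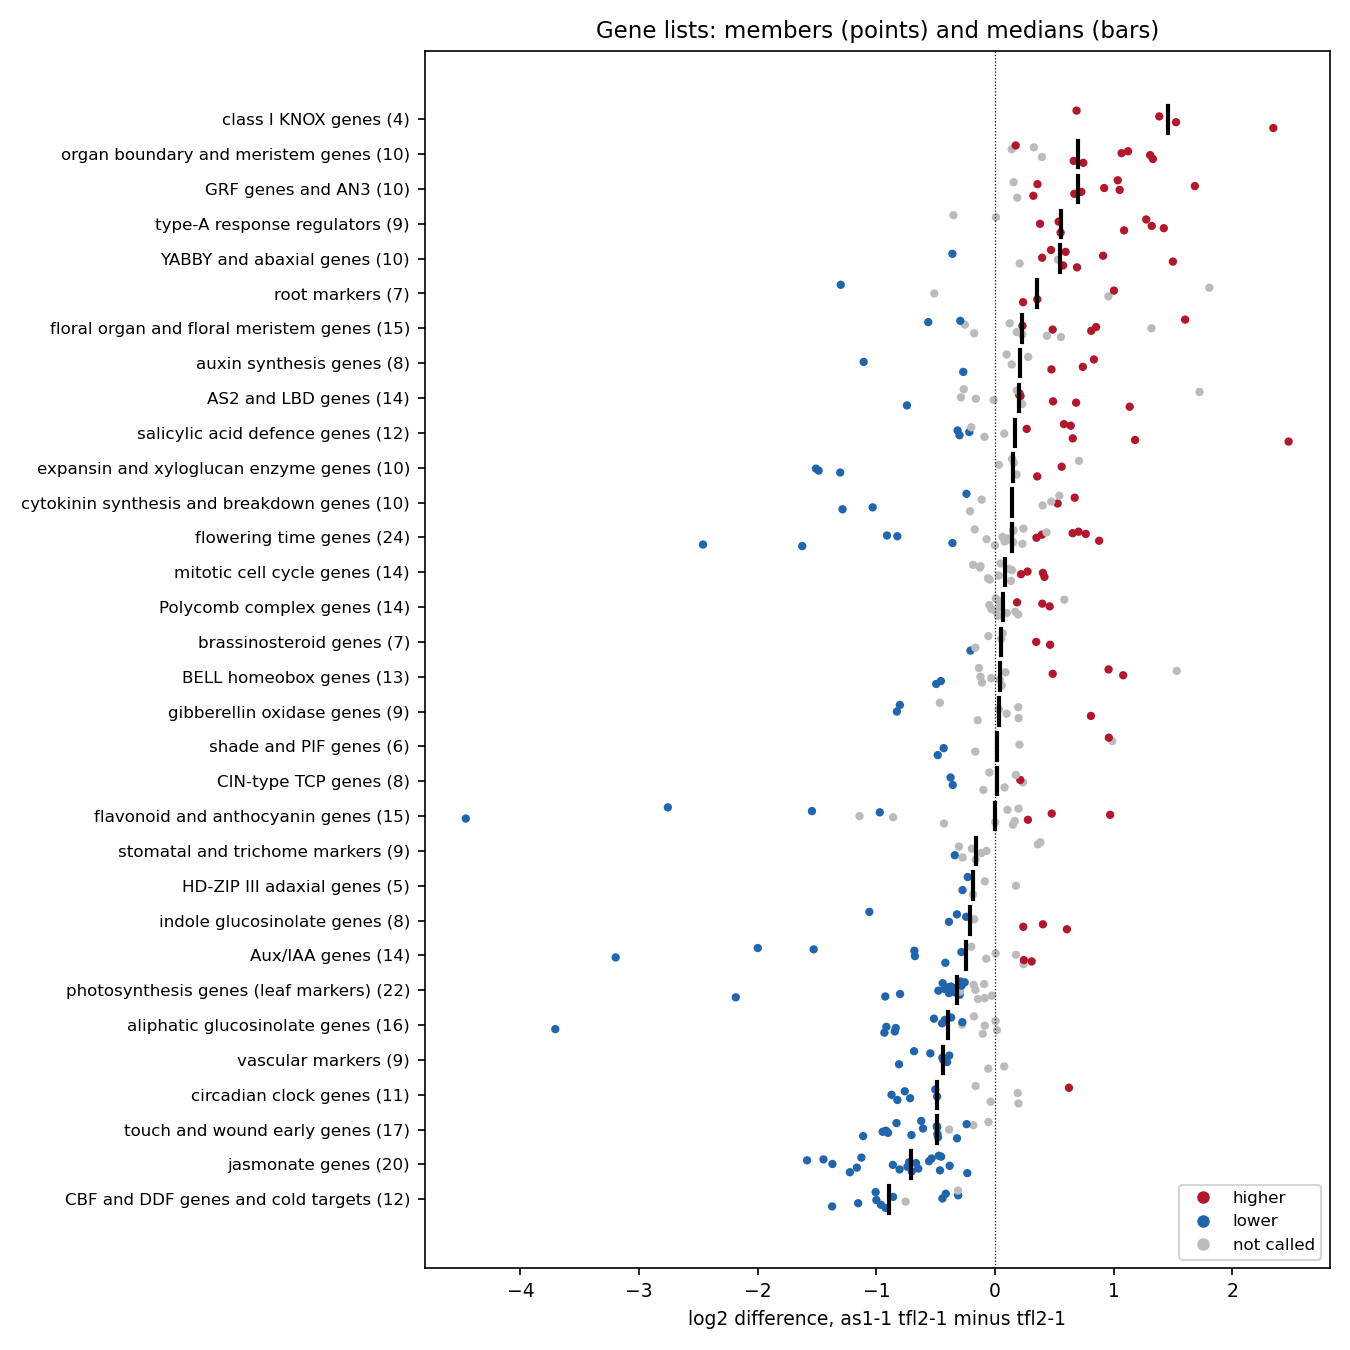
Log2 difference, as1-1 tfl2-1 minus tfl2-1, of each tested member (points, red where it rose, blue where it fell, grey where not called) of the gene lists with more than 3 tested members, with the median of each list as a bar and the number tested in brackets. The KNOX genes (median 1.46), the GRF and boundary genes (0.70 each) lie at the top, and the jasmonate genes (-0.71) and cold genes (-0.89) at the bottom.

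The largest rises among genes well above background on all 4 arrays were led by AT1G49570, with 892 and 1004 in the double mutant against 63.8 and 67.1 in tfl2-1 (3.86 ± 0.54, adjusted p = 0.0037). AT3G05727 had 7862 and 8247 against 978 and 809.6, a 9.05-fold rise. AT5G44440 had 694 and 684 against 103 and 103, and CDEF1, a cutinase gene, had 8836 and 8974 against 1639 and 1342. AT5G38940 had 283 and 250.1 against 45.1 and 53.6. The other 5 of the 10 largest carry neighbouring locus numbers on chromosome 4. AT4G22485 had 1842 and 2088 in the double mutant against 269.8 and 234 in tfl2-1 (2.97 ± 0.09, adjusted p = 3.93e-05). AT4G22517, AT4G22513, AT4G22505 and AT4G22520 rose by 2.73, 2.70, 2.64 and 2.46. No probe sequences were used, so how far the probes of these 5 genes share signal was not tested. For all 5 the 2 WT arrays were above the mean of the double mutant, with 4176 and 4092 for AT4G22485, and tfl2-1 had the lowest level of the genotypes.

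Genes that were not well above background in tfl2-1 give only a lower bound on their rise. AT2G30670 had 123 and 125 in the double mutant against 25.2 and 22.3, at least 5.22-fold higher, and BG3, a glucanase gene, was at least 4.15-fold higher. AT1G51910 was also at least 4.15-fold higher (60.9 and 109 against 5.88 and 4.28), but its call was lost without any 1 of the 4 arrays (adjusted p from 0.0539 to 0.0890). AIL7, an AP2 gene of the PLETHORA family expressed in shoot apices, had 69.9 and 83.1 against 23.2 and 24.7, at least 3.19-fold higher. ZFP11, a zinc-finger gene, was at least 2.91-fold higher. FTM1, a fatty acid desaturase gene, was above background in both genotypes, with 732 and 862 against 225 and 200.5, and had 6.45 and 6.01 in as1-1 and 53.2 and 43.4 in WT.

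The largest falls included MAM3, described above, and MSRB6 (AT4G04840), a methionine sulfoxide reductase gene. MSRB6 had 28.1 and 32.7 in the double mutant, against 351 and 348 in tfl2-1 (-3.52 ± 0.09, adjusted p = 2.43e-05). EXLB1, an expansin-like gene, had 90.6 and 100.0 against 926 and 899.7. AT5G12340 had 24.8 and 28.1 against 160.1 and 159.7, and in plants with TFL2 as1-1 lowered it about as much (-2.87). AT4G17470 (195 and 177 against 1130.2 and 1100.0) and AT4G33467 (209 and 183 against 1108 and 1054) also fell in both backgrounds, and AT1G66100 had 157 and 199 against 1112 and 987. AT3G02480 had 131 and 136 against 798 and 850.4, and DIP2 27.0 and 30.1 against 137 and 164. The 2 double mutant arrays of AT3G46490 were far apart, at 124 and 30.0 against 534 and 486, and its call was lost without either tfl2-1 array (adjusted p = 0.0586 and 0.0506).

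Falls to below background in the double mutant are bounds as well. AT2G42560 was at least 10.2-fold lower (22.6 and 5.01 against 142 and 163) and AT1G54240 at least 8.47-fold lower (4.58 and 2.16 against 224 and 65.3). AT5G52720 was at least 10.7-fold lower, but its tfl2-1 arrays were 82.1 and 284, and the call was lost without tfl2-1 replicate 2 (adjusted p = 0.0547) or double mutant replicate 2 (adjusted p = 0.0589). For AT5G52720 and AT1G54240, the as1-1 and WT arrays were also low, at 2.32 to 12.3, so these genes were high in tfl2-1 alone among the genotypes.

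Set against the effect of as1-1 in plants with TFL2, which was measured on other arrays, most genes called in tfl2-1 plants were not called. Of the 3059 genes that rose, 484 (15.8%) also rose in as1-1 against WT, 355 (11.6%) fell and 2220 (72.6%) were not called. Of the 4085 that fell, 1148 (28.1%) also fell, 349 (8.54%) rose and 2588 (63.4%) were not called. Not being called there is not by itself a difference between backgrounds. The effects differed by test for 1024 of the 2220 and for 1118 of the 2588. In as1-1 against WT, 7.09% of all genes rose and 12.1% fell. The 484 genes are 30.1% of those that rose in as1-1, and the 1148 are 41.8% of those that fell. Across all 22668 genes, the 2 sets of differences correlated with r = 0.158, and with r = 0.213 over the 20816 genes above background on all 8 arrays. Both are descriptions, since genes are not independent.

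Among the larger changes the share in common was greater. Of the 282 rises of at least 2-fold, 111 (39.4%) also rose in plants with TFL2 and 32 fell. Of the 393 falls of at least 2-fold, 178 (45.3%) also fell and 42 rose. A test of the difference itself, the as1-1 effect in tfl2-1 plants minus that in plants with TFL2, called 4597 genes (20.3%), with 2405 positive and 2192 negative (9.67%). It called 196 of the 282 rises (69.5%) and 254 of the 393 falls (64.6%). These sets were chosen by a large value that is itself a term of the tested difference. The choice shapes both shares, so they say nothing beyond it.

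**Figure D5:**
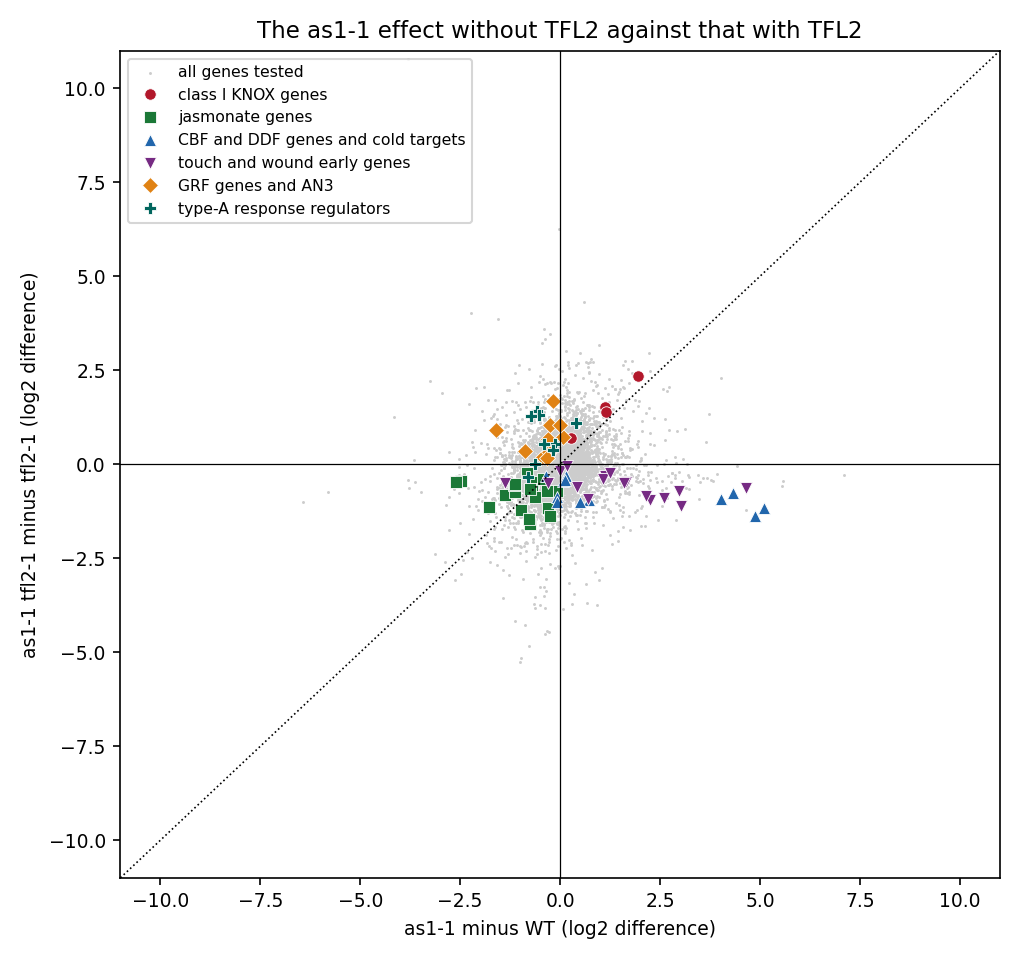
Log2 effect of as1-1 in tfl2-1 plants (vertical axis, as1-1 tfl2-1 minus tfl2-1) against that in plants with TFL2 (horizontal axis, as1-1 minus WT), with a grey point per gene tested, 6 gene lists in colour and a dotted line of equal effects. KNOX genes lie upper right, jasmonate genes lower left, GRF genes and type-A response regulators mostly upper left, and the cold and touch genes reach 5.10 on the horizontal axis while lying below 0 on the vertical one.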

How the data were processed

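RNA of whole seedlings was labelled with Cy3 and hybridised to 1-colour Agilent arrays, per the labels' protocols. The deposited intensity of each spot is, per the file headers, background-subtracted and detrended by Agilent Feature Extraction (version 10.7 per the submitters' processing notes), linear and not scaled between arrays. The authors also deposited a table of log2 values for 43661 probes, whose making is not given in the sources used here, so it served only as an alternative.

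Control probes and 67 outlier spots were left out. The log2 of each array was set to 0 at its 75th percentile, and printed levels were scaled back by a common signal of 1362.7. A probe had to be flagged well above background on both arrays of some genotype (30467 of 43603 were). Accessions were matched to RefSeq (TAIR10.1), which gave 34285 probes a locus. Headers name an older build, so none of its coordinates is printed. The kept probe with the highest mean stands for a gene, which left 22668 genes, 19000 with a RefSeq locus.

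All 8 arrays entered a limma fit (version 3.58.1, R 4.3.3, R package data.table at version 1.17.8) with a mean per genotype, 4 residual and 2.06 prior degrees of freedom, and Benjamini-Hochberg adjustment. A gene below background on both arrays of 1 genotype gets a bound, against the lowest signal well above background on each array of that genotype, or its own signal where higher. The method was tested on simulated data.

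Of 431 genes in 35 lists, 379 were tested and 49 were too dim. Members and lists were chosen with earlier results of these data known, so they are no independent evidence. Named genes are the mutated and KNOX genes, the 10 largest changes and 4 largest bounds in each direction, the 4 largest differences between backgrounds of each sign, and up to 4 members per list with the smallest p. Replicate numbers did not pair the samples (r = -0.0214 between same-numbered deviations).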

Additional observations from a re-analysis of the deposited data

Results flagged for a closer look

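What stood out is that the as1-1 effect in tfl2-1 plants differed from that in plants with TFL2, by limma's test of the difference itself. The test called 20.3% of all genes. It called 102 of the 129 genes named in the results, 50 with a positive and 52 with a negative difference (adjusted p from 2.01e-05 to 0.0444), and for 15 of 21 genes of the closing observations (adjusted p from 0.00029 to 0.0475). These genes were named for large changes or small p on arrays the test shares, or for the difference itself, so their count says nothing beyond that choice. Each value below is the log2 effect in tfl2-1 plants minus the log2 effect in plants with TFL2.

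Among the mutated genes and leaf development genes, the difference was 0.83 for AS1, 0.43 for TFL2, 0.40 for KNAT1, 0.41 for KNAT2 and 0.41 for STM. It was 1.06 for ATH1, -0.43 for BLH4, 0.63 for KAN2, 0.35 for ETT, 0.92 for LBD4, 0.75 for BOP2, 0.49 for LSH4 and 1.90 for CUC3. TCP4 had -0.56, and the growth-regulating factors GRF5, GRF7, GRF4 and GRF3 had 1.31, 1.87, 0.65 and 0.96. The cell cycle genes CYCD1;1 and CDKB2;1 had 0.60 and 0.35, and RING1B had 0.55.

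In the hormone lists, ARR6, ARR5, ARR7 and ARR15 had 2.01, 0.69, 1.84 and 2.00, and CKX4 had -1.03. GA2OX1, GA2OX6 and GA3OX1 had -1.22, -1.95 and 1.20. For auxin the values were 0.62 for TAR2, -1.15 for YUC3, 1.38 for YUC4, -1.50 for IAA19, -0.84 for IAA7 and -1.73 for IAA29. JAZ1, LOX3, JAZ10 and JAZ7 had -1.11, -0.25, 0.66 and -0.82, and PR5 had 0.41.

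Flowering genes gave -1.04 for SEP3, -1.83 for BFT and 0.48 for SPL3. Glucosinolate genes gave -4.00 for MAM3, -0.48 for MYB29, -0.70 for BCAT4, -0.75 for CYP81F2, 1.09 for CYP79B2 and 1.52 for MYB34, and MYB111 had 0.83. The clock genes PRR5 and ELF4 had -0.39 and -0.33. Cold and touch genes had large negative values, with -1.50 for COR15A, -0.78 for COR47, -4.95 for CBF1, -3.19 for ZAT12, -3.50 for ZAT10, -2.98 for WRKY40 and -5.27 for SRO5. LHCB2.1, LHCB3 and LHCB6 had -2.14, -0.81 and -0.61. EXPA11, EXPA8 and EXPA5 had -1.93, -1.18 and -1.15, and XCP1, CESA7 and CESA8 had -0.58, -0.32 and -0.55.

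Of the largest rises, AT3G05727 had 2.21, AT4G22485 2.46, AT5G44440 1.13, AT4G22517 1.90, AT4G22513 2.01, AT4G22505 2.23, CDEF1 1.89, AT4G22520 1.74 and AT5G38940 1.71. Of the largest falls, MSRB6 had -2.89, EXLB1 -2.75, AT3G02480 -3.00, AT4G17470 -0.84, AT1G66100 -1.72, AT4G33467 -1.09 and DIP2 -1.82. Defensin genes had 2.72 (PDF1.2), 2.41 (PDF1.2b), 2.12 (PDF1.2c), 2.06 (PDF1.3), 0.44 (PDF1.4) and 2.1 (PDF1.5). Water stress genes had -1.22 (NCED3), -0.75 (RD26), -0.94 (RD29A), -1.01 (GolS2) and -3.66 (LEA7).

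Genes not well above background on either array of at least 1 genotype have fitted differences that are not measured sizes. Positive ones were AT1G49570 with 5.41, AT2G30670 with 2.02, BG3 with 1.17, AT1G51910 with 6.25, AIL7 with 1.37, FTM1 with 4.85, ZFP11 with 3.66, LOB with 2.74 and AGL6 with 1.39. Negative ones were AT2G42560 with -3.92, DFR with -4.19, AT1G54240 with -4.27, DDF1 with -6.25, CBF2 with -6.24, CBF4 with -5.86, CUC1 with -0.37, IAA6 with -3.84 and GSTF12 with -2.73. The same holds for HAI2 with -1.01, GEA6 with -3.05, AtLEA4-1 with -1.83 and LEA4-5 with -1.52. Which features of the plants or arrays go with these differences was not tested. For 23 of the 102 genes the call was lost in at least 1 alternative setting, and for 19 in at least 5. Those 19 are TFL2, KNAT1, KNAT2, STM, BG3, AT1G51910, AIL7, AT2G42560, AT1G54240, ETT, CUC1, AGL6, LOX3, PR5, ELF4, CDKB2;1, XCP1, CESA7 and CESA8, with CESA7 and LOX3 lost in 11 of 16 settings.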

How the results depend on the processing

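The arrays' number, 2 per genotype, limits precision, and dim genes have only bounds. Of the 153 genes taken by the naming rule, 148 to 153 kept their direction and call under the other scalings, the replicate block, the deposited values and the mean of all probes, 137 with no filter on dim probes, 142 with only the 4 arrays in the fit, and 136 to 141 without any 1 of the 4 arrays compared. Without the filter, 1694 genes rose and 2665 fell, and 927 differences between backgrounds were positive and 1051 negative. At least 2-fold rises and falls numbered 105 and 135 with normexp correction, and 177 and 253 with probes above background on all 4 arrays. Leaving out 1 array gave 1722 to 2998 rises and 2657 to 3960 falls, 259 to 336 rises and 369 to 424 falls of at least 2-fold, and 1267 to 2044 positive and 1439 to 1828 negative differences. Positive differences numbered 1267 without tfl2-1 replicate 2 and 1382 without as1-1 replicate 1. The replicate number as a block gave 2581 rises and 3607 falls, with 1819 positive and 1747 negative differences. Genes that rose made up 42.8% of called genes, and 49.7% to 50.4% under both other scalings, normexp correction and the deposited value table. The sign of the difference between backgrounds changed with normexp for CUC1 (0.15) and SHP1 (0.35). With probes above background on all 4 arrays, GSTF12 changed to 0.61 and its difference between backgrounds to 0.62, since another probe then stands for it. The causes of the other changes were not tested.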

Other observations

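The genes below were chosen after their values were seen. Of the PDF1 family of defensins, small antifungal proteins, the 6 genes looked at rose while all 20 jasmonate genes fell. Jasmonate and ethylene together are known to induce PDF1.2. PDF1.2 had 353 and 390.1 in the double mutant, against 76.3 and 86.5 in tfl2-1 (2.19 ± 0.12, adjusted p = 0.000164). PDF1.2b, PDF1.2c, PDF1.3 and PDF1.5 rose by 2.17, 2.00, 2.12 and 2.19, and PDF1.4 by 0.96. In WT, PDF1.2 had 404 and 371, and its double mutant minus WT difference was -0.06. Those of the others ran from -0.80 (PDF1.5) to 0.35 (PDF1.3), except 1.04 for PDF1.4. The tfl2-1 minus WT differences were -2.25 (PDF1.2), -1.95 (PDF1.2b), -1.86 (PDF1.2c), -1.77 (PDF1.3), -3.00 (PDF1.5) and 0.08 (PDF1.4). Comparisons with WT cross slides. PDF1.2, PDF1.2b and PDF1.2c are known as close copies, and no probe sequences were used here, so how far the 6 probes share signal was not tested. ERF1 and ORA59, ethylene response factors known to drive PDF1.2, gave -0.00 (adjusted p = 0.984) and -0.04 (adjusted p = 0.62).

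Of 8 genes of abscisic acid and drought looked at, 6 fell, a count that the choice after seeing values shapes. NCED3, the key enzyme of abscisic acid synthesis, had 113 and 118 in the double mutant against 235 and 271 in tfl2-1 (-1.13 ± 0.10, adjusted p = 0.000856). RD20, RD26 and RD29A fell by 1.12, 1.09 and 1.01, and HAI2, a phosphatase of the pathway, by 1.02. GolS2 had 18.0 and 18.3 against 86.8 and 84.3, with 1 of the 2 double mutant arrays above background. LTI65 and RAB18 were not called (0.31 and 0.24), and the 2 arrays of RAB18 were 30224 and 17646 in the double mutant. Among late embryogenesis abundant genes, LEA7 had 838 and 733 against 2456 and 2405 (-1.63 ± 0.15) and LEA4-5 fell by 0.98. GEA6 and AtLEA4-1 were below background in the double mutant and at least 6.38-fold and 2.8-fold lower, and LEA18 was not called.

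The 5 chromosome 4 genes among the largest rises lie together in RefSeq order (TAIR10.1). Of the 11 genes from AT4G22470 to AT4G22520, in order of their starts, 8 were tested and 6 rose at least 2-fold. AT4G22470, the first in this order, and AT4G22530 were not called (0.06 each). AT4G22530 stands between AT4G22517 and AT4G22520, which both rose, and AT4G22520 overlaps it. The tfl2-1 minus WT differences of AT4G22485, AT4G22505, AT4G22513, AT4G22517 and AT4G22520 were -4.04, -2.82, -3.23, -2.82 and -3.06. These share the tfl2-1 arrays with the rises and cross slides.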
